A study of Mus musculus with 74 samples.

Results

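The comparison described here is the difference between 2 liver responses after 29 days of dosing. One response is troglitazone minus its own vehicle. The other is Elmiron minus its own vehicle. It rests on 20 of the 74 arrays of the series, chosen by tissue, day and the study prefix in the labels, with 1 array per mouse. All the mice were male and of the B6C3F1 strain. The troglitazone study gave 5 vehicle livers and 5 livers of mice dosed orally at 1200 mg/kg. The Elmiron study gave 5 vehicle livers and 5 livers of mice dosed orally at 1000 mg/kg. Each study has vehicle mice of its own, so the 2 responses share no control sample. Each compound was given in 1 study only and at a dose of its own, so compound, dose and study cannot be told apart. Both doses were set above the high doses of earlier carcinogenicity tests, per the labels. The 20 livers of the same studies on day 15, from other mice, served as a second look at each gene. The series asked when proliferative or hypoxic changes arise in tissues that develop hemangiosarcoma, a tumour of endothelial cells.

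Troglitazone is a thiazolidinedione, a ligand of the nuclear receptor PPARγ. PPARγ is most abundant in fat, where it drives genes of lipid uptake and storage. Its relative PPARα is the main form in hepatocytes and drives genes that take up, activate and oxidise fatty acids. Both receptors pair with RXR and bind repeats of the letters AGGTCA. Elmiron is pentosan polysulfate, a sulfated polysaccharide drug related in its charge to heparin. A gene that responds alike to both compounds has a difference near 0 between the 2 responses, whatever the size of each.

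The livers carried the markers of the tissue on the label. The 10 measured hepatocyte markers had log2 intensities between 13.13 and 15.21 in all 20 arrays, and Alb, the albumin gene, lay between 15.08 and 15.21. Within the 4 groups, pairs of arrays correlated from 0.980 to 0.996 over the 18193 genes, with no identical pair. Vehicle mouse 88 of the troglitazone study stood apart, with a median correlation of 0.981 to its group mates against 0.9876 or more in the other 19 arrays. Its Socs3, an inhibitor of cytokine signalling, was 3.33 log2 units above the mean of the other 4 vehicle livers, and its metallothionein gene Mt2 was 3.20 above. Without this mouse, 8 genes passed the test described below, 6 of them among the 7 found with it. Elmiron mouse 91 stood apart in several lipid genes named below. Without both mice 4 genes passed, and Aldh3a2, Fitm1 and Vnn1 were the 3 of them found in the full set.

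The 2 responses differed in 7 genes, each with a response to troglitazone above its response to Elmiron. The genes were Vnn1, Fitm1, Acot1, Cd36, Acyp2, Serpinb1a and Aldh3a2. Of the 7, 3 stand on the list of PPARα targets and fatty acid oxidation (Vnn1, Acot1 and Aldh3a2) and 2 on the list of PPARγ and lipid droplet genes (Fitm1 and Cd36). A gene was called when its limma p, adjusted over all 18193 genes by Benjamini-Hochberg, fell below 0.05. The 7 genes are 0.0385% of those tested. No gene was called in the other direction in this fit, and the median difference over all genes was -0.003 log2 units. At an unadjusted p under 0.05 there were 1800 genes. The one-sidedness depended on the fit. With array weights, which count deviating arrays less, 187 genes were called higher and 421 lower. With the spread taken from all 40 liver arrays, 17 genes were called and 1 of them was lower.

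Few genes were called for either compound on its own, which cannot show that a response was narrow, since small groups leave many changes uncalled. Troglitazone against its own vehicle gave 9 called genes in limma, 0.0495% of those tested, 8 higher and 1 lower. At an unadjusted p under 0.05 there were 1235 genes for troglitazone. Elmiron against its own vehicle gave 0 called genes in limma, 0% of those tested, with 1308 genes at an unadjusted p under 0.05 and a smallest adjusted p of 0.0697. When the spread was estimated from all 40 liver arrays of both days, limma called 4 genes for Elmiron, all lower. They were Acot1, Aldh3a2, Hsdl2, a peroxisomal dehydrogenase-like protein, and Id3, an inhibitor of basic helix-loop-helix factors. Hsdl2, chosen after its values were seen, fell by 0.38 log2 units with Elmiron in that fit. Without troglitazone mouse 92 in the 20-array fit, 3 genes were called for Elmiron. The 2 vehicle groups gave 0 called genes against each other in limma, 0% of those tested, with 1588 at an unadjusted p under 0.05. Without vehicle mouse 88 the number of called genes between the vehicle groups rose from 0 to 15.

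**Figure D1:**
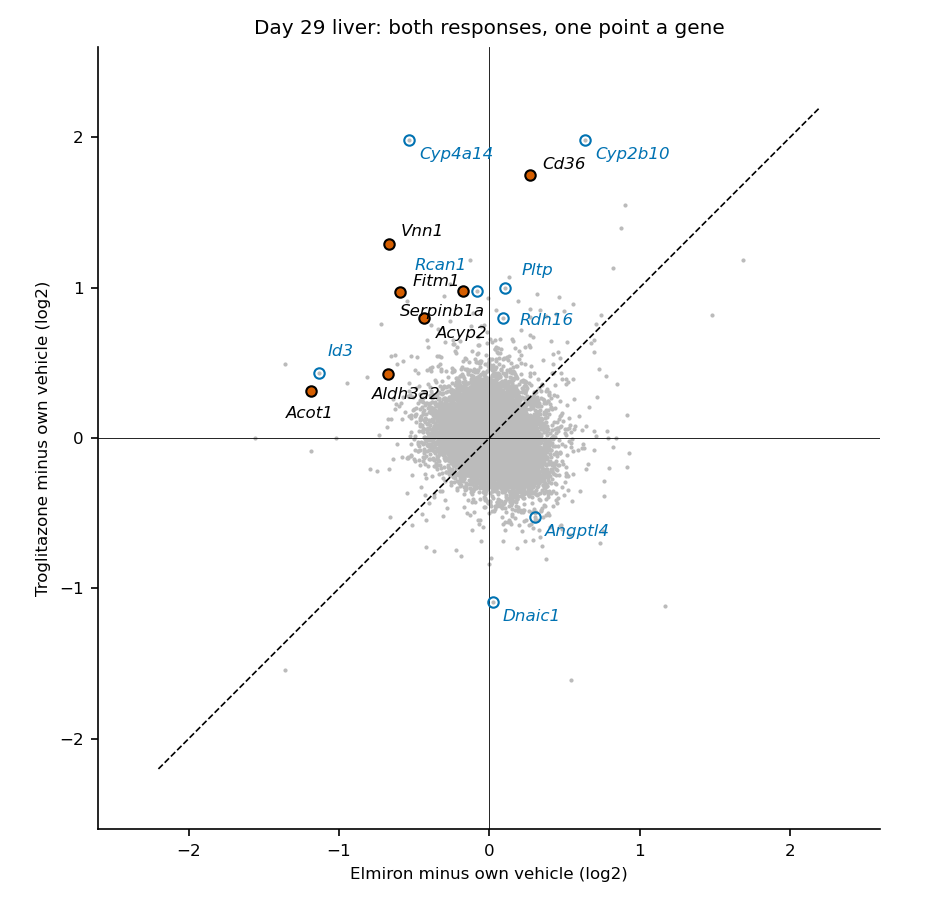
Each grey point is 1 of 18193 genes, with the Elmiron response on the x axis and the troglitazone response on the y axis, both in log2 units on day 29. Filled points are the 7 genes whose responses differed, all above the dashed line of equal response, and open points are other genes named in the text.

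The 4 groups can be read from the livers themselves. In the 7 called genes, the response to troglitazone was above 0 in 7 and the response to Elmiron was below 0 in 6, the exception being Cd36. The troglitazone response was itself called in 4 of them (Vnn1, Fitm1, Cd36 and Serpinb1a), and the Elmiron response in 0, the smallest adjusted p being that of Acot1. Treated and own vehicle values did not overlap in 5 of the 7 for troglitazone, where 1.07% of all genes do not overlap, and in 2 of the 7 for Elmiron, where 1.43% do not. These shares describe the genes and support nothing, since the same contrasts chose them. The vehicle groups of the studies differed less than the treated groups in each of the 7 genes. In 6 of the 7, all but Cd36, the troglitazone vehicles lay below the Elmiron vehicles, which adds to the difference between the responses. Set directly against each other, the treated groups differed in 108 genes, 0.594% of those tested, and 6 of the 7 were among them, Acyp2 having an adjusted p of 0.0561.

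**Figure D2:**
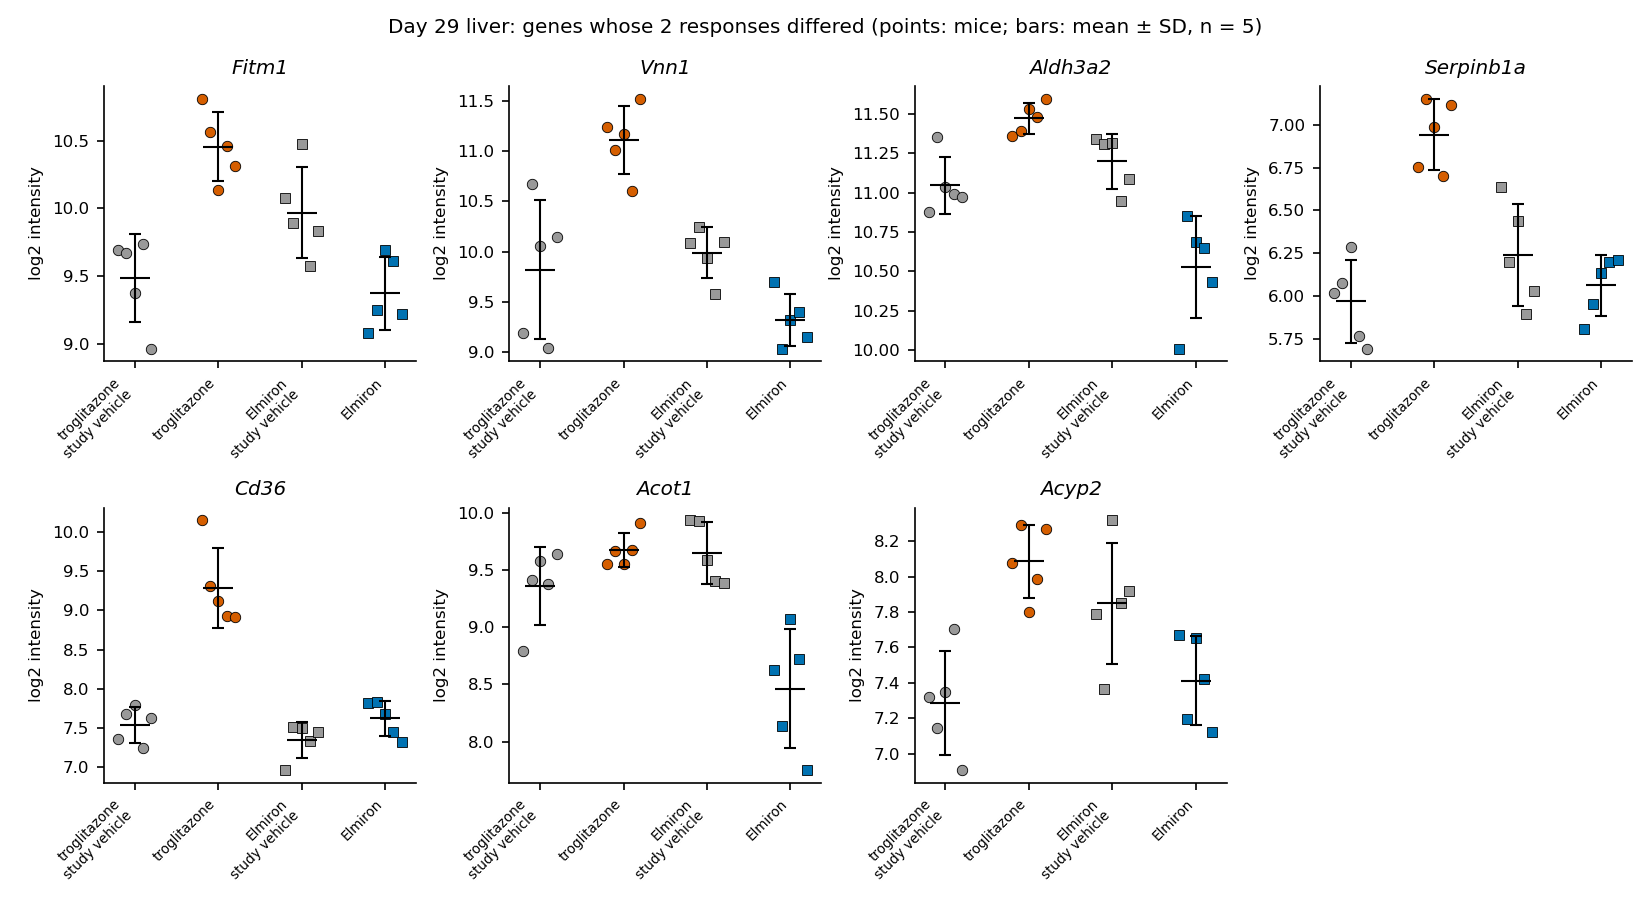
Log2 intensity of the 7 called genes in each of the 20 livers of day 29, 5 mice a group, with the group mean and SD as bars. Cd36 in the troglitazone livers lies between 8.91 and 10.15, above every other liver, whereas Acot1 in the Elmiron livers lies between 7.75 and 9.07, below the other groups except for 1 vehicle liver of the troglitazone study at 8.79.

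For genes that moved together, the start of the gene shows the letters a nuclear receptor could read. RefSeq promoters of build GRCm38.p6 were at hand for 5 of the 7 called genes: Cd36, Acot1, Aldh3a2, Fitm1 and Acyp2. The 250 bases before the start of transcription were searched on both strands for 4 motifs. They were AGGTCA, the half-site of PPAR and other nuclear receptors; TATAAA, the TATA box; GGGCGG, the GC box; and CCAAT. Of 32851 promoters, 14% held AGGTCA, 12.4% TATAAA, 32.7% GGGCGG and 33.8% CCAAT. In Cd36 (chr5:17835897-17836146, minus strand), 1 half-site was found, read on the opposite strand from position 228 before the start, with 2 GC boxes and 1 CCAAT box. Acot1 (chr12:84009252-84009501, plus strand) and Aldh3a2 (chr11:61267187-61267436, minus strand) each held 1 GC box and 1 CCAAT box. Fitm1 and Acyp2 held none of the 4. The sequences with a match are given in the direction of transcription, with the matched letters in capitals.
Cd36: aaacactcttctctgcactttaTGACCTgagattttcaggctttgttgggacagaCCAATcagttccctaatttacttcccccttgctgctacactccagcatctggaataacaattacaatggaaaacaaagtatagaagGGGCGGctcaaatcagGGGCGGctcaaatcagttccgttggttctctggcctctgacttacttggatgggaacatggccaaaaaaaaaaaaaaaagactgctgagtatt
Acot1: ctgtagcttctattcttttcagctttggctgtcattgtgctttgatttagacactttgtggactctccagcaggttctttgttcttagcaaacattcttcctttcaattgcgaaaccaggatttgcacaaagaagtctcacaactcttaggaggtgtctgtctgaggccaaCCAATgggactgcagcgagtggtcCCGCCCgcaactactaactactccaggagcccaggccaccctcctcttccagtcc
Aldh3a2: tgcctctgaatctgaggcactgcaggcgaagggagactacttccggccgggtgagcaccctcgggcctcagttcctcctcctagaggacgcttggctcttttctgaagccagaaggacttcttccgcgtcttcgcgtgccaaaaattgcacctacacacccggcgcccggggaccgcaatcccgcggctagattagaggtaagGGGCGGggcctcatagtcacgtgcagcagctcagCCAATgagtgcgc
A match says only that these letters stand in this window.

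Cd36 encodes the fatty acid translocase, which brings long-chain fatty acids into the cell. The troglitazone livers of mice 92 to 96 read 10.15, 9.31, 9.12, 8.93 and 8.91 in log2 intensity. Their vehicle livers, mice 83 and 85 to 88, read 7.35, 7.67, 7.80, 7.24 and 7.63. The Elmiron vehicle livers, mice 81 to 85, read 6.96, 7.51, 7.50, 7.33 and 7.44, and the Elmiron livers, mice 91 to 95, read 7.82, 7.84, 7.68, 7.44 and 7.32. So all 5 troglitazone livers lay above all other livers, and the Elmiron livers overlapped their vehicle. Cd36 rose with troglitazone by 1.75 log2 units, 3.36-fold (limma, adjusted p = 4.50e-05). The Elmiron response was 0.27, which did not pass. The responses differed by 1.48 ± 0.26 (SE), with a 95% interval of 0.94 to 2.01 and an adjusted p of 0.0350. The 3 probe sets of the gene gave differences from 1.36 to 2.0.

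Cd36 is also made by macrophages, sinusoidal endothelium and adipocytes, and troglitazone mouse 92, the highest in Cd36, was also the highest in Kupffer cell markers. Over the 24 measured markers of Kupffer cells and macrophages, the liver-resident phagocytes, the mean deviation from the average of the 20 livers was 0.94 in mouse 92. It ran from 0.04 to 0.30 in the other 4 troglitazone livers, from -0.33 to 0.20 in their vehicles, from -0.28 to 0.14 in the Elmiron vehicles and from -0.51 to 0.04 in the Elmiron livers. Of the 24 markers, 21 had a difference between the responses above 0, or 87.5% against 49.5% of all genes, and 0 were called, with a median of 0.42. On day 15 only 4 of the 24 lay above 0, or 16.7% against 46.7% of all genes, with a median of -0.15. Without mouse 92 the median was 0.25, and Cd36 stayed called with a difference of 1.26 (limma, adjusted p = 0.0287; range over all settings and omissions 0.0169 to 0.101). In whole-liver RNA, more cells of a type and more RNA per cell cannot be told apart. The part of the marker levels in the Cd36 result was not tested further. Clec4f, a lectin restricted to Kupffer cells, had a difference of 0.64 ± 0.32 on day 29 and -0.08 on day 15, neither called.

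Fitm1 encodes a membrane protein of the endoplasmic reticulum that binds triglyceride and helps lipid droplets form. It read 10.81, 10.56, 10.13, 10.46 and 10.31 in the troglitazone livers against 9.69, 9.67, 9.37, 9.74 and 8.97 in their vehicles, with no overlap. In the Elmiron study the vehicles read 10.07, 9.89, 10.47, 9.57 and 9.83 and the treated livers 9.08, 9.25, 9.69, 9.61 and 9.22. The Elmiron livers thus lay low in their study, but 2 of them overlapped the lowest vehicle. Fitm1 rose by 0.97 with troglitazone (limma, adjusted p = 0.0228), whereas the Elmiron response of -0.60 did not pass. The difference of 1.56 ± 0.24 had a 95% interval of 1.06 to 2.07 and the smallest adjusted p of all genes, 0.0274. It is a difference of 2.96-fold, to which the vehicle groups contributed: the troglitazone vehicles lay 0.48 below the Elmiron vehicles.

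Vnn1 encodes vanin, a pantetheinase anchored at the cell surface that frees pantothenate and cysteamine, and it is a known PPARα target in liver. Its troglitazone livers read 11.24, 11.01, 11.17, 10.60 and 11.52, and their vehicles 9.19, 10.67, 10.06, 9.04 and 10.15. The Elmiron vehicles read 10.08, 10.25, 9.94, 9.58 and 10.10, and the Elmiron livers 9.70, 9.04, 9.32, 9.40 and 9.15. Each compound's groups overlapped by a single pair of mice, vehicle mouse 85 lying just above troglitazone mouse 95 and Elmiron mouse 91 just above vehicle mouse 84. Vnn1 rose by 1.29 with troglitazone (limma, adjusted p = 0.0315), and the Elmiron response was -0.67 without a call. The difference of 1.96 ± 0.33, or 3.88-fold (95% interval 1.27 to 2.65 in log2 units, adjusted p = 0.0339), was the largest of the called genes. Both probe sets of the gene gave a like value, 1.93 and 1.96.

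Acot1 encodes a cytosolic thioesterase that splits long-chain acyl-CoA into free fatty acid and coenzyme A. Here the Elmiron side carried most of the difference. The Elmiron livers read 8.63, 8.13, 9.07, 8.72 and 7.75, all below their vehicles at 9.94, 9.93, 9.59, 9.40 and 9.38. The troglitazone livers read 9.55, 9.66, 9.55, 9.67 and 9.91 and overlapped their vehicles at 8.79, 9.41, 9.58, 9.38 and 9.64. The Elmiron response was -1.19 (limma, adjusted p = 0.0697) and the troglitazone response 0.31, neither called. Their difference was 1.496 ± 0.28 (95% interval 0.92 to 2.07, adjusted p = 0.0473). Acot1 has close paralogs whose messages a probe set could share. Acot2, its mitochondrial neighbour, had a difference of 0.49, Acot4 of 0.36 and Acot3 of 0.06, none called.

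Aldh3a2 encodes fatty aldehyde dehydrogenase, which oxidises long-chain aldehydes to fatty acids. Its values separated the treated from the vehicle livers in nearly opposite ways. The troglitazone livers, at 11.36, 11.39, 11.53, 11.48 and 11.60, lay above their vehicles at 10.88, 11.35, 11.03, 10.99 and 10.97. The Elmiron livers, at 10.01, 10.85, 10.69, 10.65 and 10.43, lay below theirs at 11.34, 11.31, 11.31, 10.94 and 11.09. Neither response passed alone, at 0.43 for troglitazone and -0.67 for Elmiron, and the difference did, at 1.10 ± 0.18 (limma, 95% interval 0.72 to 1.48, adjusted p = 0.0339). Elmiron mouse 91 was the lowest liver, and without it the difference was 0.97 and still called. Over all settings and omissions the adjusted p of Aldh3a2 ran from 0.00775 to 0.151, and it was called in 11 of the 20 omissions.

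The other 2 called genes stand on neither of these lists. Serpinb1a, an inhibitor of neutrophil serine proteases, read 6.75, 7.16, 6.99, 6.70 and 7.12 in the troglitazone livers, all above their vehicles at 6.01, 6.08, 6.29, 5.77 and 5.69. The Elmiron livers, from 5.81 to 6.21, overlapped their vehicles, from 5.90 to 6.64. Serpinb1a rose by 0.98 with troglitazone (limma, adjusted p = 0.00326), the Elmiron response was -0.18, and the difference was 1.15 ± 0.20 (adjusted p = 0.0339). Its other probe set gave 0.48, at a mean log2 intensity of 4.22 against 6.30 for the one used. Acyp2, an acylphosphatase of muscle type, read between 7.80 and 8.29 in the troglitazone livers and between 6.91 and 7.70 in their vehicles, with no overlap. In the Elmiron study the livers ran from 7.12 to 7.67 and the vehicles from 7.37 to 8.32. The Acyp2 responses were 0.80 and -0.44, neither called, and the difference was 1.24 ± 0.23 (limma, adjusted p = 0.0473). The troglitazone vehicles lay 0.56 below the Elmiron vehicles, so that gap was nearly as large as the 0.67 between the treated groups.

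PPARα target and fatty acid oxidation genes gave 3 of the 7 calls, Vnn1, Aldh3a2 and Acot1. Of 31 measured members, 24 had a difference above 0, or 77.4% against 49.5% of all genes, and the median was 0.17 against -0.003. The member's response was above 0 with troglitazone and below 0 with Elmiron in 17 of the 31, or 54.8% against 27.5% of all genes. The median response was 0.06 with troglitazone and -0.12 with Elmiron. Mean deviations of the list ran from 0.04 to 0.23 in the troglitazone livers and from -0.26 to -0.08 in the Elmiron livers, without overlap. They ran from -0.19 to 0.23 and from -0.08 to 0.11 in the respective vehicles. On day 15, in other mice, 20 of the 31 members had a difference above 0, or 64.5% against 46.7% of all genes, with a median of 0.06 and 0 called. These lists and members were chosen with results of these data known, so the shares are descriptions.

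The remaining members of that list were not called, and their values were uneven. Next to Cyp4a14 and the 3 called genes came 2 peroxisomal enzymes, chosen for mention after their values were seen. Acaa1b, a thiolase, had a difference of 0.90 ± 0.29 and Ehhadh, the bifunctional enzyme, 0.60 ± 0.15. The peroxisomal Acaa1a, Crot and Hsd17b4 had 0.17, 0.14 and 0.05. In Acaa1b all 5 troglitazone livers, from 14.34 to 14.58, lay above their vehicles, from 13.99 to 14.14. Elmiron mouse 91 lay far below its group at 12.26, where the other 4 Elmiron livers read 13.78 to 13.91, and without it the difference was 0.59. Mitochondrial enzymes lay on both sides of 0. Eci1 had 0.39, Decr1 0.24, Acadm 0.20, Hadhb 0.07, Acadl 0.02, Acadvl -0.11 and Hadha -0.23. Cpt1a, which admits fatty acids to mitochondria, had -0.18. Against the list's direction, Angptl4, a secreted inhibitor of lipoprotein lipase and a PPAR target, had -0.83 ± 0.17 (limma, adjusted p = 0.0937; range over settings 0.0203 to 0.332). Its troglitazone livers read 11.68, 11.20, 11.26, 11.40 and 11.34, below their vehicles except for vehicle mouse 87 at 11.51. Its Elmiron livers ran from 12.20 to 12.54 against 11.84 to 12.32 in the vehicles.

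Cyp4a14, a fatty acid omega-hydroxylase and a standard PPARα readout, had the largest difference of any gene and also a wide spread. It read 12.05, 10.67, 11.44, 9.76 and 11.96 in the troglitazone livers and 8.26, 10.76, 9.72, 7.21 and 10.02 in their vehicles. The Elmiron vehicles read 8.61, 9.16, 8.15, 8.34 and 8.29. The Elmiron livers read 10.89, 6.85, 7.29, 7.36 and 7.48. Of these, 4 lay below every vehicle of the Elmiron study, and mouse 91 lay above all of those vehicles. The difference was 2.52 ± 0.92, with a 95% interval of 0.62 to 4.42 and no call (limma, adjusted p = 0.439). Without mouse 91 it was 3.25, also without a call. On day 15 the difference was 2.57 ± 0.74, not called.

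**Figure D3:**
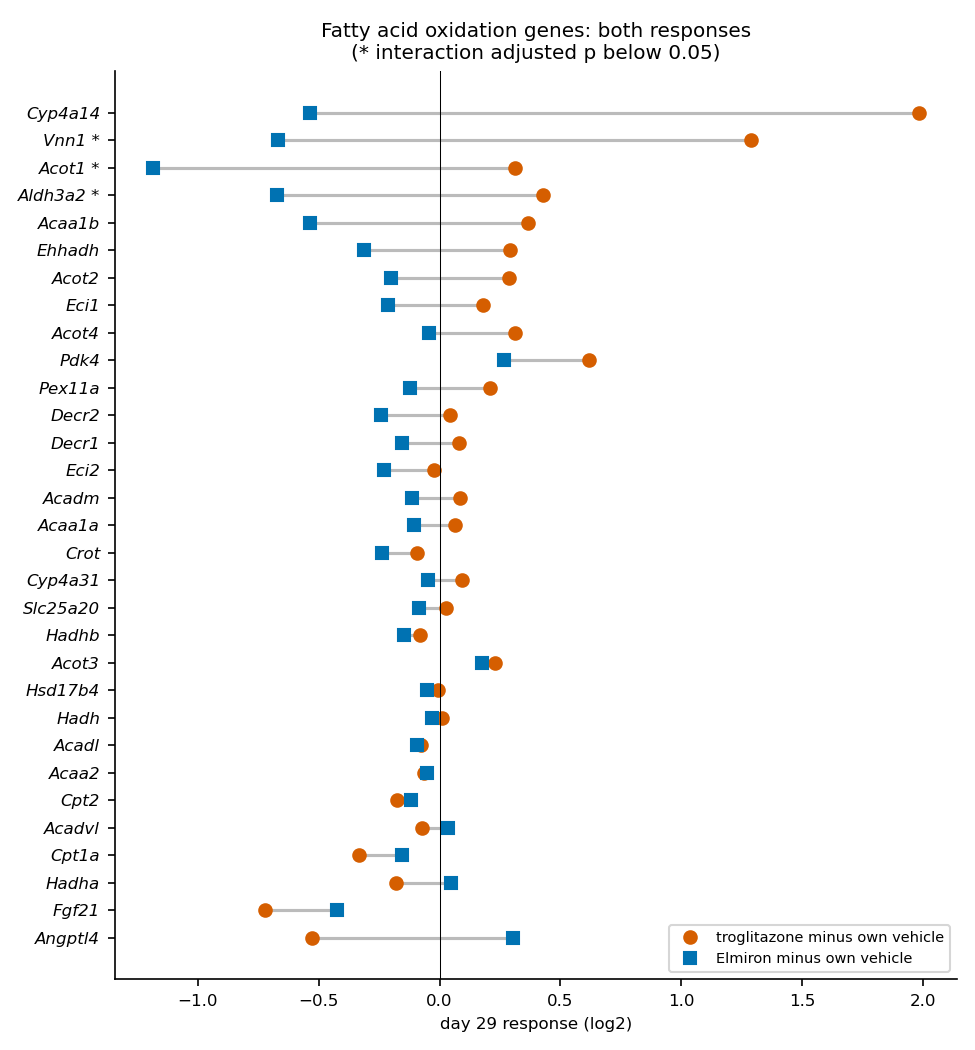
Each row is 1 of 31 measured genes of fatty acid oxidation, with its day 29 response in log2 units to troglitazone (circle) and to Elmiron (square), ordered by the difference. Circles lie to the right of squares in 24 rows, by 1.96 in Vnn1 and 1.496 in Acot1, and to the left in 7, most in Angptl4.

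PPARγ and lipid droplet genes gave 2 calls, Fitm1 and Cd36. Of 23 measured members 13 had a difference above 0, with a median of 0.05, close to that of all genes. Pparg, the receptor for troglitazone, had a difference of 0.20 ± 0.21 (95% interval -0.24 to 0.64), with livers from 7.47 to 8.23 with troglitazone and 7.36 to 7.96 in their vehicles. G0s2, an inhibitor of the triglyceride lipase of lipid droplets, matched Cd36 in size at 1.48 but with an SE of 0.56, and was not called. Cidec, which fuses lipid droplets in fat and in fatty liver, lay on the other side at -0.79 ± 0.33. It read 4.72 to 5.42 with troglitazone and 5.44 to 6.27 with Elmiron, against 4.84 to 5.90 and 4.57 to 5.91 in the vehicles, and was not called. Plin2, the main droplet coat protein of hepatocytes, had 0.05 ± 0.12. Adipocyte markers did not follow the compounds: Elmiron mouse 92 had the highest mean deviation over the 6 measured markers, 0.81, and the other 19 livers ran from -0.24 to 0.32.

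In lipoprotein handling 0 of 20 genes were called on day 29, and Pltp was the clearest case on day 15. Pltp encodes the phospholipid transfer protein of plasma, a target of PPAR, LXR and FXR receptors. The troglitazone livers read 11.68, 10.91, 11.31, 10.95 and 10.88, above their vehicles at 10.34, 9.82, 10.26, 10.18 and 10.13. The Elmiron livers ran from 9.47 to 10.29, overlapping vehicles from 9.48 to 10.04. Pltp rose with troglitazone by 0.999 (limma, adjusted p = 0.0100), and the difference between the responses was 0.89 ± 0.23, not called (adjusted p = 0.310; range over settings 0.0465 to 0.569). On day 15 it was 1.13 ± 0.13 and the only call of that day (limma, adjusted p = 2.31e-04), 1 gene or 0.0055% of those tested. There the troglitazone livers read 10.85 to 11.33, and all 15 other livers 9.76 to 10.30. Lpl, lipoprotein lipase, had 0.94 ± 0.38 on day 29 and 0.90 on day 15, neither called, although its troglitazone livers (11.44 to 12.38) lay above their vehicles (10.33 to 11.29).

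Drug-metabolising genes differed in how they divided. Cyp2b10, a P450 induced through the receptor CAR, rose with troglitazone by 1.98 (limma, adjusted p = 0.00810). Its troglitazone livers read 12.20, 11.73, 10.70, 11.11 and 10.80, above vehicles of 8.65 to 9.67. In the Elmiron study, 3 livers at 10.75, 10.75 and 10.39 lay above every vehicle and 2 at 9.36 and 9.02 lay among or below them, the vehicles running from 9.07 to 9.92. The difference of 1.34 ± 0.44 was not called on day 29 (limma, adjusted p = 0.403; range over settings 0.0398 to 0.648, called with array weights only), nor was the 2.40 ± 0.49 on day 15. Cyp3a11, the main target of PXR, had 0.08 ± 0.12 with livers between 14.26 and 14.73 in all 4 groups. These levels come close to those of Alb, at 15.08 to 15.21. Whether a rise could show so near the top of the scale was not tested. Of 31 measured P450s of families 1 to 3, 0 were called for the difference. Cyp7a1, the rate-limiting enzyme of bile acid synthesis, ranged from 8.0 to 12.30 across the livers. Its difference of -0.37 ± 0.83 had a 95% interval of -2.08 to 1.34, too wide to exclude a change of either sign.

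Other genes called for troglitazone alone did not pass for the difference in the fit of 20 arrays, which is no evidence that the responses are alike. They were chosen after their values were seen. Rdh16, a retinol and hydroxysteroid dehydrogenase, rose by 0.80 (limma, adjusted p = 0.00117), with an Elmiron response of 0.09 and a difference of 0.70 ± 0.15 (range of its adjusted p over settings 0.0251 to 0.312). Rcan1, an inhibitor of calcineurin, rose by 0.98 (adjusted p = 0.00628), with a difference of 1.06 ± 0.21. The difference of Rcan1 was called with quantile normalization, with array weights and without troglitazone mouse 96, where it was 1.19 (limma, adjusted p = 0.0284; range over settings 0.0171 to 0.224). Dnaic1, a dynein chain of motile cilia, fell by 1.09 (adjusted p = 0.0100), with a difference of -1.11 ± 0.26 (range over settings 0.0203 to 0.414). Their Elmiron responses all lay between -0.08 and 0.09. With the spread taken from all 40 liver arrays, 17 genes were called for the day 29 difference, among them the 7 above, Rdh16, Pltp, Id3 and, as the 1 lower gene, Dnaic1.

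Id3 and Id1, targets of BMP signalling, were low in the Elmiron livers, and both were chosen after their values were seen. The list of iron handling and BMP targets as a whole was not low with Elmiron. Of its 12 measured genes, 6 had an Elmiron response below 0, or 50% against 46% of all genes, with a median of -0.001. Id3 read 9.44, 8.32, 9.26, 8.54 and 9.34 in the Elmiron livers, all below vehicles at 9.88, 9.76, 10.19, 9.87 and 10.86. The Elmiron response was -1.13, the troglitazone response 0.43, and the difference 1.56 ± 0.32 lay just outside the threshold (limma, adjusted p = 0.0937; range over settings 0.0203 to 0.231). Id1 read 8.40 to 9.04 with Elmiron against 9.51 to 9.97 in the vehicles, and its difference was 1.10 ± 0.31. On day 15 the differences were 0.08 for Id3 and -0.44 for Id1. The change between days was 1.48 ± 0.43 and 1.54 ± 0.48, and neither was called. Just inside the threshold lay Acot1 and Acyp2, at 0.0473, and just outside Arrdc2, Frmd5 and Ten1, at 0.0838, with differences of -0.97, 0.85 and 1.02.

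The genes behind the study's question, and lysosomal and heparan sulfate genes, gave no call for the difference. Endothelial and sinusoidal markers had 0 of 32 called on day 29 and a median of 0.10. Of the 32, 20 lay above 0, or 62.5% against 49.5% of all genes. On day 15 the direction was the opposite: 0 of the 32 were above 0, where 46.7% of all genes were, with a median of -0.24 and 0 called. Their vehicles differed by a median of 0.22 between the studies. Pecam1, an endothelial adhesion molecule, had 0.14 ± 0.21 and Kdr, the VEGF receptor of endothelium, -0.14 ± 0.22. Vegfa, the main angiogenic factor under hypoxia, had -0.004 ± 0.16 (95% interval -0.33 to 0.32), a sign that turned under other scalings. Hypoxia targets had 0 of 24 called and a median of 0.01. Cell cycle genes had 0 of 34 called, a median of 0.09 and, in Mki67, 0.05 ± 0.22. Lysosomal genes had 0 of 43 called and a median of -0.09, with Ctsd, a lysosomal protease, at 0.04 ± 0.11. Gpnmb, a marker of lysosome-laden macrophages, had 0.12 ± 0.14. The 11 measured genes of lipid-laden macrophages had 0 called, a median of 0.34 and 8 above 0, or 72.7% against 49.5% of all genes. On day 15, 4 of the 11 lay above 0. The mean deviation of that list on day 29 ran from 0.14 to 0.39 in the troglitazone livers and from -0.35 to 0.06 in their vehicles. It ran from -0.32 to 0.10 in the Elmiron vehicles and from -0.29 to 0.08 in the Elmiron livers. Genes for heparan sulfate synthesis and core proteins had 0 of 33 called and a median of -0.21. Of the 33, 5 lay above 0, or 15.2% against 49.5% of all genes. The troglitazone vehicles lay a median of 0.10 above the Elmiron vehicles, a gap that enters the difference. On day 15, 14 of the 33 lay above 0, or 42.4% against 46.7% of all genes, with a median of -0.03.

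Among the metabolic lists without a call, several stood on 1 side of 0. Cholesterol synthesis genes had 4 of 21 differences above 0, or 19% against 49.5% of all genes, and a median of -0.15. In these the Elmiron response was above 0 in all 21 measured genes, with a median of 0.27, where 46% of all genes lay below 0. The troglitazone response was above 0 in 18, or 85.7% against 50.6% of all genes, with a median of 0.07. The troglitazone vehicles lay a median of 0.13 above the Elmiron vehicles, a gap that enters the difference. Mean deviations of the list ran from -0.33 to -0.08 in the Elmiron vehicles and -0.01 to 0.23 with Elmiron. They ran from -0.23 to 0.10 in the troglitazone vehicles and -0.04 to 0.32 with troglitazone. On day 15 the median difference was -0.14, with 3 above 0. Glucose metabolism and fasting genes had a median of -0.25 with 2 of 14 above 0 (14.3%), and bile acid genes -0.15 with 4 of 22 (18.2%). In these lists the troglitazone vehicles lay a median of 0.18 and 0.08 above the Elmiron vehicles, respectively. On day 15 the medians of the latter lists were -0.02 and 0.002.

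Day 15 gave a check of the 7 called genes in mice that took no part in choosing them. All 7 had a difference above 0 on day 15, where 46.7% of all genes did, and 0 of the 7 were called there. Vnn1 had 1.15 ± 0.39, Fitm1 0.62 ± 0.27, Aldh3a2 0.52 ± 0.17, Serpinb1a 0.51 ± 0.23, Cd36 0.44 ± 0.31, Acot1 0.39 ± 0.33 and Acyp2 0.31 ± 0.28. Each was smaller than its day 29 value. The change between the days was tested over the 40 arrays and gave 0 called genes in limma, 0% of those tested, with 1567 at an unadjusted p under 0.05 and a smallest adjusted p of 0.354. The days' responses to Elmiron in Acot1 were -1.19 on day 29 and -0.09 on day 15. For Cd36, the day 15 troglitazone livers read 8.16, 8.88, 8.63, 8.76 and 8.41 and the Elmiron livers 8.35, 8.36, 7.78, 8.28 and 8.47. Both treated groups were thus high on day 15, the responses being 1.04 and 0.60, neither called.

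**Figure D4:**
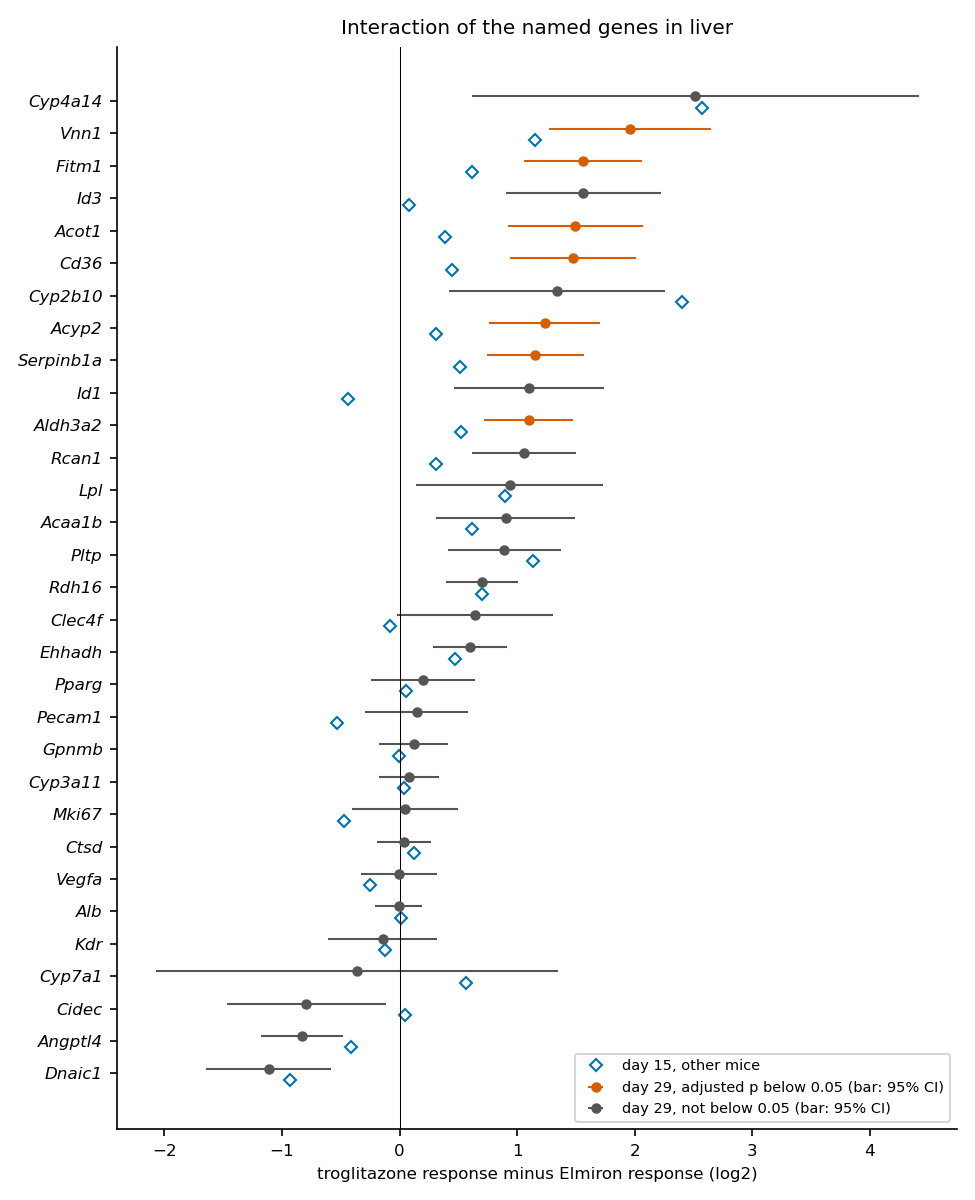
The difference between the troglitazone and Elmiron responses (log2 units) for the genes named in the text, with 95% intervals for day 29 and open diamonds for day 15. The 7 called genes lie between 1.10 and 1.96 on day 29 and between 0.31 and 1.15 on day 15.

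The calls changed with most single livers left out, while the sizes moved little. With each of the 20 livers left out in turn, the number of called genes ran from 0 to 9. It was 0 without troglitazone mouse 93, without Elmiron vehicle mouse 83 and without Elmiron mouse 95. It was 1 without troglitazone vehicle mouse 83, troglitazone mouse 94 or Elmiron mouse 94, and 2 without Elmiron vehicle mouse 81 or 82. It was 3 without troglitazone vehicle mouse 85, troglitazone mouse 96, Elmiron vehicle mouse 85 or Elmiron mouse 91, and 4 without Elmiron vehicle mouse 84. The other 7 omissions gave 5 to 9, the highest without troglitazone vehicle mouse 87. Fitm1 was called in 17 of the 20 omissions, Aldh3a2 in 11, Vnn1, Cd36 and Serpinb1a in 8 each, Acyp2 in 3 and Acot1 in 2. The differences stayed between 1.43 and 1.66 for Fitm1, 0.97 and 1.18 for Aldh3a2, 1.76 and 2.17 for Vnn1 and 1.26 and 1.57 for Cd36. The highest adjusted p over the omissions was 0.0808 for Fitm1 and 0.137 for Acot1.

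**Figure D5:**
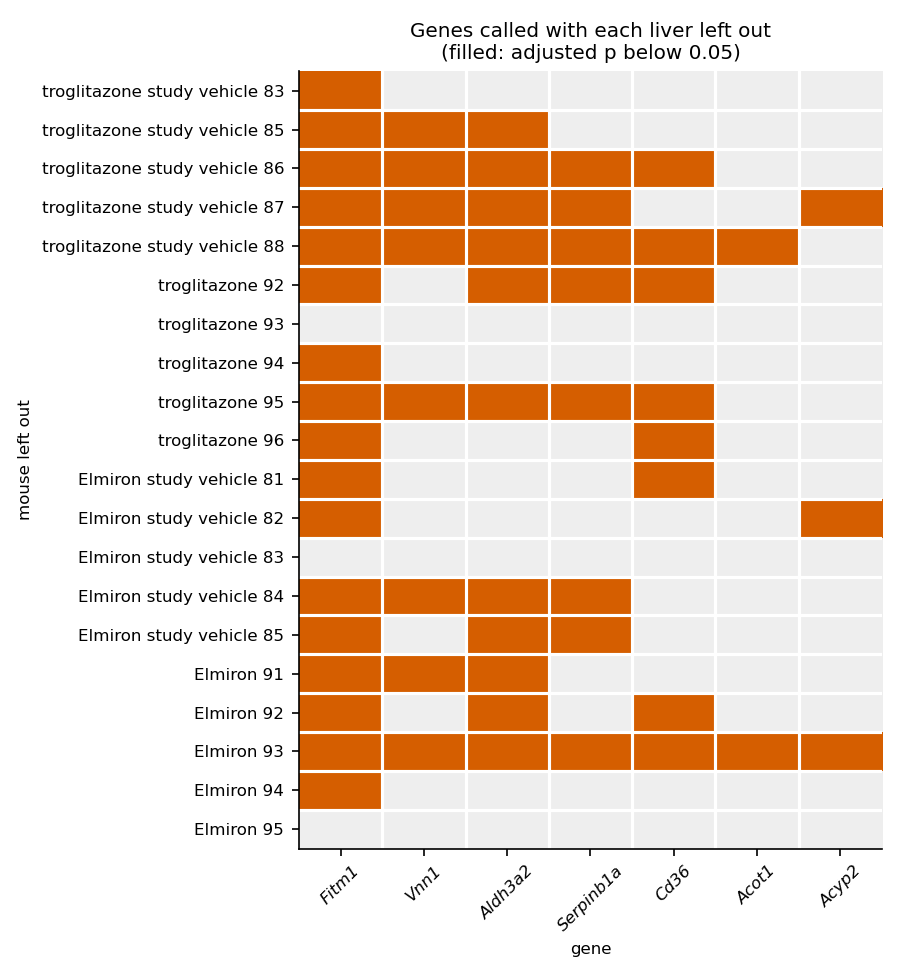
Each row is the fit without 1 of the 20 livers of day 29 and each column 1 of the 7 genes, and a filled cell marks an adjusted p below 0.05. Fitm1 is filled in 17 rows and Acot1 in 2, and the rows without troglitazone mouse 93, Elmiron vehicle mouse 83 and Elmiron mouse 95 are empty.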

How the data were processed

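The deposited values are linear intensity per probe set of Affymetrix mouse arrays, made with RMA per the submitters' processing notes. The RMA version and chip definition were not given in the sources used here. Total RNA was isolated with Trizol and labelled with biotin, per the labels' protocols. The intensity ran from 7.44 to 39426, and its log2 was taken. Of 45101 probe sets, 34945 had 1 gene symbol in the platform annotation, 932 several, 9160 none and 64 were controls. For each of 18193 genes the probe set brightest on average over the 74 arrays was used.

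Groups and own vehicles follow the label prefixes, and replicates are distinct mice by their numbers. Limma 3.58.1 in R 4.3.3 (lmFit, eBayes) fitted 1 mean per group to the 20 arrays of day 29, with no filter. Calls are Benjamini-Hochberg adjusted p-values below 0.05 over all genes. Errors after ± are standard errors of the fit. The same contrast was fitted to day 15, and the change between days to 40 arrays. The number of arrays limits the precision.

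Named are the 10 highest and 10 lowest called genes without overlap for at least 1 compound, up to 3 called members of each of 47 lists (842 of 918 entries measured), and 17 genes named whatever their result. The members and the lists were chosen with earlier results of these data known. The 11 alternative settings and the omissions of single livers are given in the closing section.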

Additional observations from a re-analysis of the deposited data

Results flagged for a closer look

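Single livers stood far from their group of 5 in 9 of 124 gene and group combinations, or 7.26%, where chance gives about 1 in 20. In the Elmiron group mouse 91 was apart in 3 lipid genes. Its Cyp4a14 was 10.89 against a next value of 7.48, its Acaa1b 12.26 against 13.78 and its Ehhadh 11.75 against 12.21. Mouse 95 of that group had an Id1 of 9.04 against 8.54. In the troglitazone vehicle group, Lpl was 10.33 in mouse 88 against 11.02, Vegfa was 9.01 in mouse 87 against 9.47, and Acaa1b was 13.99 in mouse 87 against 14.11. Mki67 was 5.96 in troglitazone mouse 95 against 5.76, and Pecam1 was 6.42 in Elmiron vehicle mouse 82 against 6.74. No gene had a difference between the compounds that was called as changed between the days.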

How the results depend on the processing

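The 7 called genes were kept in full with median centring, the probe set highest over the 20 arrays, a trended and robust fit (8 called), a 1.5-fold threshold, all 40 livers and array weights. The day 29 count was 4 with the upper 50% of genes, quantile normalization, the mean of a gene's probe sets or both stand-apart mice left out (the last chosen after seeing the data), 17 with all 40 livers and 608 with array weights, where 187 were higher and 421 lower. The upper 50% of genes by mean level left out Serpinb1a and Acyp2, so they were not tested in that setting. Array weights gave 359 for troglitazone and 341 between the vehicles, and 2 for day 15 and for the change between days. The Elmiron count of 0 became 2 with the mean of probe sets, 1 with the robust fit and 4 with all 40 livers. The vehicle count of 0 became 17 without both mice. The day 15 count of 1 became 2 with the upper 50% of genes, the mean of probe sets and the robust fit, and 3 with quantile normalization. With single livers left out, counts ran from 0 to 9 (difference, day 29), 6 to 12 (troglitazone), 0 to 3 (Elmiron), 0 to 15 (vehicles), 1 to 2 (day 15) and 0 to 0 (between days).

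Same mouse numbers in the 2 studies are different animals. As a replicate block they left 1 gene called on day 29 (Rgs16, lower, none of the 7), 0 on day 15, 2 between vehicles and 1 between days, and each compound's own response could not be estimated because vehicle and treated mice share no number. The 6 same-numbered pairs of day 29 had correlated deviations of -0.12 to 0.21, over 0.1 in 2, and 3 of 12 livers correlated best with their own number.

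Signs turned in 6 genes that were not called: Vegfa to 0.0542 (quantile), 0.0162 (median centring), 0.0062 (both mice out) and -0.105 to 0.0584 (omissions); Alb to 0.0119 (median centring), 0.0005 (array weights) and -0.0188 to 0.0079 (omissions); Cyp7a1 to 0.0396 (mean of probe sets) and -0.759 to 0.191 (omissions), against -2.77 with the block. Mki67 turned to -0.119 (array weights), -0.0139 (both mice out), -0.0035 (block) and -0.0728 to 0.159 (omissions), Pecam1 to -0.0212 (array weights) and Ctsd to -0.0611 (block). The causes were not tested. Absence of detection calls and 5 mice a group limit what dim genes can show.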

Other observations

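Across all genes, the troglitazone and Elmiron responses of day 29 had a Pearson correlation of -0.19, and the day 29 and day 15 differences between them had 0.08. Genes are not independent replicates, so these are descriptions of the 20 and 40 livers.

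Rgs16, an inhibitor of G protein signalling whose level varies with time of day and feeding, had a difference of -2.15 ± 0.57 between the responses, not called (limma, adjusted p = 0.323), and was picked after its values were seen. Its troglitazone livers ran from 7.35 to 8.01, and their vehicles from 7.33 to 9.89. The Elmiron livers ran from 8.69 to 10.52 and their vehicles from 8.45 to 10.18. On day 15 the difference was -0.78.

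Vehicle mouse 88 of the troglitazone study read 13.69 for Saa1, an acute phase protein, where the other 4 vehicles read 11.17 to 12.97. It read 10.10 for Fos, an immediate early gene, where they read 7.91 to 8.29, and 12.21 for the chemokine gene Cxcl1, where they read 9.74 to 10.42. Over the whole list of acute phase proteins, mouse 88 was the highest of its group, but its mean deviation was only 0.003. The highest mean deviations on that list were 1.45 in Elmiron mouse 91, 1.19 in troglitazone mouse 92 and 1.06 in Elmiron vehicle mouse 85. Whether these levels bear on the lipid genes was not tested.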
